A study of Rattus norvegicus with 6 samples.

Results

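The phagocyte NADPH oxidase is the enzyme with which neutrophils and macrophages turn oxygen into superoxide. Its catalytic core sits in the membrane as a heterodimer of gp91phox, encoded by Cybb, and p22phox, encoded by Cyba. In resting cells regulatory subunits stay in the cytosol, among them the organizer p47phox (Ncf1) and the phosphoinositide-binding adaptor p40phox (Ncf4), and the small GTPase Rac2 joins them when the cell is stimulated. Loss of phox subunits is known to cause chronic granulomatous disease, and gp91phox and p22phox are known to stabilize each other as proteins.

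The 5 members described here, Cybb, Cyba, Ncf1, Ncf4 and Rac2, were taken by symbol from a table of 17030 gene symbols on 17557 rows, and each was on 1 row. The partners were chosen by their role beside Cybb, and Cybb because its mRNA was lower in every digitoxin-treated tumor. That contrast of Cybb is therefore given as a description, with no test. All 5 members passed a minimum mean of 1 FPKM (a read level scaled to transcript length and library depth), as did 10749 rows in all.

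Messenger RNA was sequenced from the subcutaneous tumors of 6 Lobund-Wistar rats, injected in the flank at 2 months of age with cells of PAIII, a prostate adenocarcinoma line of this strain. Rats A1, A6 and A12 received digitoxin, a cardiac glycoside, at 0.03 mg/kg daily from day 10, and rats B5, B9 and B14 received vehicle (n = 3 in each group, 1 library per rat). Tumors were taken on day 40, and 10 micropunches, placed over areas rich in tumor cells on a stained section, were pooled per tumor. The treated rats were picked for low and the vehicle rats for high serum IL-6 and CINC-1, so the drug and this selection cannot be told apart. For many genes the group means of the labelled columns also differ from those the study tabulates, for a reason not known here, so each difference between groups holds only for the libraries as labelled.

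The libraries differed in ways that the groups do not explain. The summed FPKM of 12 lung alveolar markers was 106479 in A1, 215150.1 in A6, 48906 in B5 and 59424 in B9, but 43.3 in A12 and 64.3 in B14. Of the 8 prostate markers, 4 were under 1 FPKM in all 6 libraries, Hoxb13 and Pbsn among them, whereas the epithelial mRNAs Krt8 and Epcam ran from 398 to 2095 and from 208 to 525 FPKM. A6 was the lowest of the 6 tumors for 50.5% of the tested rows. Values are therefore given by tumor, and with A12 and B14 apart from the other 4.

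**Figure D1:**
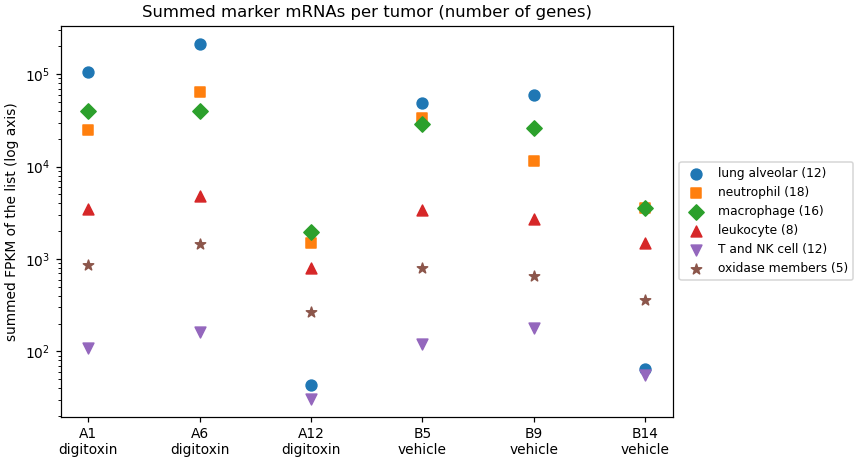
Summed FPKM of marker lists in each tumor, on a log axis, with the number of genes of each list in the key. The lung alveolar sum falls to 43.3 FPKM in A12 and 64.3 FPKM in B14, and the oxidase members have their lowest sums, 265 and 357 FPKM, in the same libraries.

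The promoters of Cybb and of 2 partners are shown because Cybb and its partners had different profiles across these tumors. RefSeq windows (build GRCr8, 250 bases before to 50 after the start site) were matched for 3 of the 5 members, Cybb, Cyba and Ncf1. The 140 bases just before each start site are printed 5′ to 3′ on the strand of the gene, with matches to motifs in capitals. Cybb is at chrX:16065066-16065205 (minus strand), Cyba at chr19:67404215-67404354 (minus strand) and Ncf1 at chr12:28121745-28121884 (plus strand).
Cybb: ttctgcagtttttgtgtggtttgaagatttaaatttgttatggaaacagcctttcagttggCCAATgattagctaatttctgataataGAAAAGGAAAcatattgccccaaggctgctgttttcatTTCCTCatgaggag
Cyba: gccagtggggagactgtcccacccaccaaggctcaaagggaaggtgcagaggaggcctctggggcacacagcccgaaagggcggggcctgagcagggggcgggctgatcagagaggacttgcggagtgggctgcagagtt
Ncf1: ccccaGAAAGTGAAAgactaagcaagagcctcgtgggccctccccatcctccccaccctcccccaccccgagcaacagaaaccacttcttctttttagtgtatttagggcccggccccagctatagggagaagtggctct

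Letters were searched on both strands of the whole 300-base windows. The PU.1 core GAGGAA was found once in Cybb, as its complement TTCCTC from base -14, and in neither partner, against 27.6% of all 33469 windows. The box CCAAT was found at bases -203 and -79 of Cybb and in neither partner (37.5% of all windows). The interferon response pattern, GAAA on either side of any 2 bases, was found from base -52 of Cybb and from base -135 of Ncf1, and in 3.92% of all windows. No match overlapped another. TATAAA (14.2% of windows) and the 1 fixed form of the NF-kappaB site that was searched, of 10 letters (0.111% of windows), were not among the letters of the 3 windows. Other forms of that site were not searched. A match describes the sequence and does not show that a factor binds there.

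Cybb was at the lowest level of the members in each of the 6 tumors. Its mRNA measured 13.5 FPKM in A1, 2.74 in A6 and 8.16 in A12, and 18.1 in B5, 31.2 in B9 and 23.3 in B14. The groups did not overlap, and their nearest tumors were A1 at 13.5 FPKM and B5 at 18.1 FPKM. The digitoxin-treated tumors had a mean of 8.15 ± 5.40 FPKM (SD, n = 3) and the vehicle tumors of 24.2 ± 6.60 FPKM (SD, n = 3). Being lower in every digitoxin-treated tumor was the reason Cybb was chosen. It was shared by 350 of the 10749 tested rows (3.26%), and for 308 of those 350 rows, or 88.0%, A6 was the lowest tumor, as it was for Cybb.

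Cyba, the other chain of the membrane heterodimer, was the most abundant member and had a different profile. It measured 435 FPKM in A1, 730.1 in A6 and 174 in A12, and 395 in B5, 293 in B9 and 202 in B14. A6, where Cybb was lowest, held the highest Cyba level, and A12 the lowest. The groups overlapped.

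The cytosolic subunits followed Cyba rather than Cybb in their highest and lowest tumors. Ncf1 was at 85.6 FPKM in A1, 107 in A6 and 19.6 in A12, and at 63.9 in B5, 71.5 in B9 and 29.6 in B14. Ncf4 was at 73.0 FPKM in A1, 142 in A6 and 23.7 in A12, and at 81.2 in B5, 62.5 in B9 and 36.1 in B14. Each was highest in A6 and lowest in A12, with overlap between the groups.

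Rac2, the GTPase of blood cells, spanned the widest range of the partners. It was at 264 FPKM in A1, 489 in A6 and 39.1 in A12, and at 247 in B5, 191 in B9 and 66.4 in B14, a 12.5-fold range. All 4 partners were thus highest in A6 and lowest in A12, a combination found in 1164 rows, or 10.8% of those tested. A12 and B14, the libraries with lung alveolar sums under 100 FPKM, held the lowest levels of each of these 4 mRNAs.

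**Figure D2:**
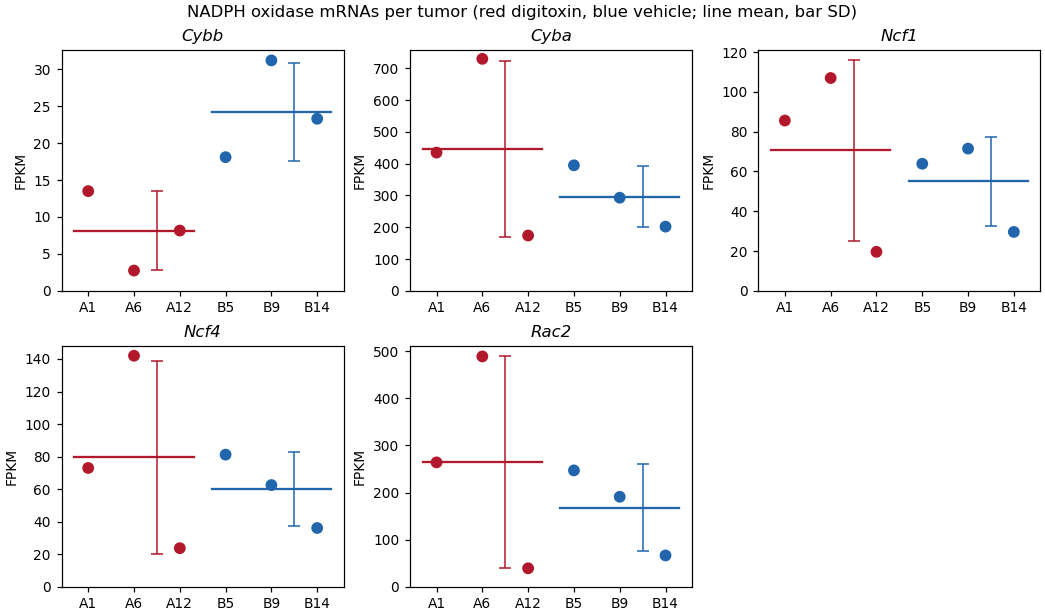
FPKM of Cybb and its 4 partners in each tumor, with lines for group means and bars for the SD (n = 3). Cybb alone separates the groups, and in A6 it is at 2.74 FPKM while the 4 partners have their highest values there.

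With limma's moderated test on log2(FPKM + 1), none of the 4 partners passed the threshold between digitoxin-treated and vehicle tumors. The difference of means, digitoxin minus vehicle, was 0.42 for Cyba (standard error 0.56), 0.14 for Ncf1 (0.70), 0.14 for Ncf4 (0.67) and 0.23 for Rac2 (1.00). Their adjusted p-values were 0.926, 0.971, 0.969 and 0.968 over all rows, and their unadjusted p-values 0.484, 0.845, 0.836 and 0.823. Over all 10749 rows the same test called 0 at an adjusted p under 0.05 (0.0%) and 36 at an unadjusted p under 0.05 (0.335%), of which 29 were lower (0.27%) and 7 higher (0.0651%) with digitoxin. The unadjusted count was 446 (4.15%) with the replicate number as a block, under which the partners' unadjusted p-values ranged from 0.264 to 0.703. With so few called, a missed threshold does not show that the partners were alike in both groups, and the standard errors allow differences in either direction.

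The partners' differences depended on single libraries. Without A6 they became -0.0513 for Cyba, -0.31 for Ncf1, -0.44 for Ncf4 and -0.52 for Rac2. Without A12 they were 0.98, 0.89, 0.83 and 1.29, in the same order, and the unadjusted p of Cyba was 0.0464 in a fit where 19.7% of all rows were under 0.05. Ncf1, Ncf4 and Rac2 were also below 0 without B14 (-0.25, -0.18 and -0.33), and Ncf1 and Rac2 without A1 (-0.15 and -0.0729). The difference of Cybb, -1.63, ran from -2.07 to -1.09 in these fits, and its sign was fixed by how Cybb was chosen.

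The members were also compared within the 2 sets of libraries. The lung alveolar sum was close in A12 and B14, but in the other 4 it was 106479 and 215150.1 FPKM with digitoxin against 48906 and 59424 FPKM with vehicle, the direction in which most partners ran there, and its part was not tested. Between A12 and B14, Cybb was 2.86-fold higher in the vehicle tumor, against 1.16-fold for Cyba, 1.51-fold for Ncf1, 1.52-fold for Ncf4 and 1.70-fold for Rac2. The median ratio of tested rows was 1.01. With 1 tumor on each side, these ratios have no replicate check, and the direction for Cybb was fixed by its choice. Among A1, A6, B5 and B9, Cybb was lower in both digitoxin-treated tumors, an order that its choice fixed and that 40% of rows shared. Cyba, Ncf1 and Rac2 were higher in both of those digitoxin-treated tumors, as were 17.2% of rows, and Ncf4 overlapped.

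Ratios within a tumor are free of any scaling between libraries. For each 100 FPKM of Cyba there were 3.11 FPKM of Cybb in A1, 0.376 in A6 and 4.68 in A12, and 4.57 in B5, 10.7 in B9 and 11.6 in B14. The groups overlapped at A12 and B5, and A6 was 28.4-fold below B9. Against Rac2 the ratio ran from 0.561 in A6 to 35.1 in B14. Against Ncf1 it ran from 2.56 to 78.9 and against Ncf4 from 1.93 to 64.6, in the same libraries. For every partner, A6 had the lowest and B14 the highest share of Cybb, and the digitoxin-treated and vehicle tumors overlapped.

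**Figure D3:**
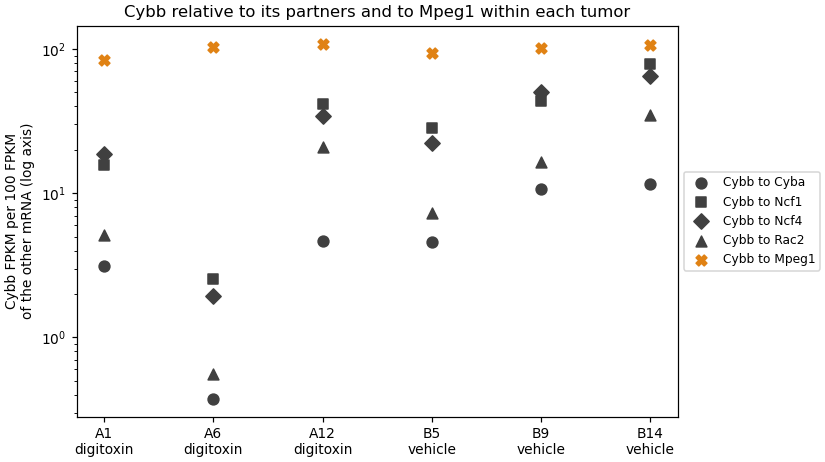
Cybb per 100 FPKM of each partner and of Mpeg1 in each tumor, on a log axis. Against the partners the ratio is lowest in A6, 0.376 for Cyba and 0.561 for Rac2, whereas against Mpeg1 it stays between 83.7 and 109.

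The order of the 5 members by level was Cyba, Rac2, Ncf4, Ncf1 and Cybb. FPKM is a level per length of transcript, so mRNAs can be compared with each other. Neighbouring partners in the order, which was sorted on the same 6 tumors, were compared with an exact two-sided sign-flip permutation test, with p-values adjusted over the 3 comparisons. Cyba exceeded Rac2 in 6 of 6 tumors, by 2.08-fold as a geometric mean (range 1.49 to 4.46), and Rac2 exceeded Ncf4 in 6 of 6, by 2.66-fold (1.65 to 3.61). Both had the smallest exact permutation p that 6 tumors allow, 0.03125 (adjusted 0.0469), which any pair ordered alike in all 6 reaches. The pairs were picked by these same levels, and the p-values do not allow for that choice. Ncf4 and Ncf1 did not differ beyond their spread, with Ncf4 higher in 4 of 6 tumors (exact permutation p = 0.25). The step from Ncf1 to Cybb is given with no test, since it uses the values for which Cybb was chosen, and the ratio ran from 1.27 in B14 to 39.1 in A6.

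The cytosolic subunits Ncf1 and Ncf4 held their proportion to each other. Ncf4 ranged from 0.852 to 1.32 times Ncf1, although Ncf1 changed 5.47-fold and Ncf4 5.99-fold over the same tumors. Rac2 did not keep to Cyba as closely, with 0.606 to 0.670 FPKM per FPKM of Cyba in A1, A6, B5 and B9 and 0.224 and 0.330 in A12 and B14. Relative to its ubiquitous paralog Rac1, Rac2 was at 0.691 in A1, 1.82 in A6, 0.668 in B5 and 0.503 in B9, and at 0.0789 in A12 and 0.123 in B14. Likeness was measured as the root mean square difference of log2(FPKM + 1) over the 6 tumors, after subtracting each mRNA's own mean. It lay between 0.206 and 0.594 for the 6 pairs among the partners, and between 1.45 and 1.82 for the 4 pairs of these with Cybb, where the median distance of all tested rows from Cybb was 0.974. Of the tested rows, 11.7% lay further from Cybb than Ncf1 did and 4.95% further than Rac2. Cybb was chosen on these values, and the distance is not scaled to an mRNA's own range. These distances and shares from Cybb are therefore only a description.

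The 5 mRNAs closest to Cybb were Mpeg1, Slc6a6, Zeb2, Ptbp2 and Rnf144b, at distances of 0.118, 0.222, 0.271, 0.310 and 0.337. Mpeg1 encodes perforin-2, a pore-forming protein of macrophages, Slc6a6 a taurine transporter, Zeb2 a zinc-finger transcription factor and Ptbp2 a splicing regulator. Mpeg1 was at 16.2 FPKM in A1, 2.68 in A6 and 7.5 in A12, and at 19.2 in B5, 30.6 in B9 and 22 in B14. For each 100 FPKM of Mpeg1 there were 83.7 to 109 FPKM of Cybb, so the ratio of these mRNAs stayed nearly level while each changed 11.4-fold. The likeness is over 6 libraries that share depth and composition, and is given as a description.

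**Figure D4:**
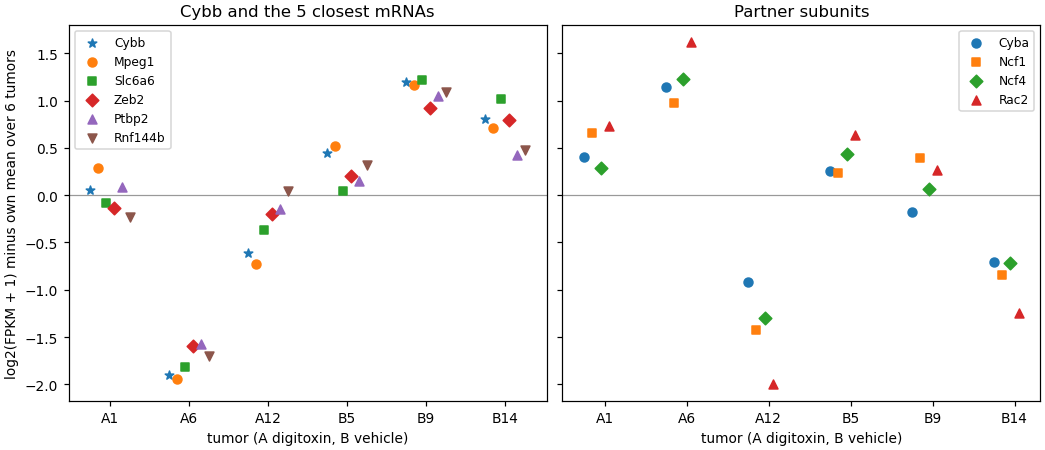
log2(FPKM + 1) of each mRNA in each tumor minus its own mean over the 6 tumors. On the left, Cybb and the 5 closest mRNAs are lowest in A6, and on the right, the partners are highest in A6 and lowest in A12.

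Levels in A6, where Cybb and its partners split, varied with the genomic span of genes. With genes sorted by their genomic span into 5 bins of equal size, the share of rows with their lowest level in A6 was 34.8% in the shortest bin and 59.6% in the longest, and the median difference of A6 from the median of the other tumors went from 0.0874 to -0.63 on the log2 scale. Cybb spans 31914 bases and lies in bin 4, where 59.3% of rows were lowest in A6 and 17.7% highest. Cyba (7408 bases), Ncf1 (9198) and Rac2 (13192) lie in bin 2 and Ncf4 (17014) in bin 3. Mpeg1, the mRNA closest to Cybb and also lowest in A6, spans only 2262 bases and lies in bin 1, the shortest. Transcript length and RNA integrity were not analysed here, and their part in the split was not tested.

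In bulk tissue, fewer cells of a type and less mRNA per cell cannot be told apart. Macrophages and neutrophils both carry the oxidase, and their 34 markers were read in the same libraries. The 18 neutrophil mRNAs summed to 1502 to 63573 FPKM with digitoxin and 3572 to 33608 FPKM with vehicle. The sum was mostly S100a8 and S100a9, which were highest in A6 and lowest in A12. Of the 15 tested, 5 were highest in A6 and 11 lowest in A12, as were 23.9% and 20.5% of all tested rows. The chemokine receptor Cxcr2 was instead lowest in A6, at 7.95 FPKM, and Mmp9 and Padi4 were highest in A12, at 60.0 and 32.0 FPKM. Ltf and Cd177 were under 1 FPKM in every library. The neutrophil alarmin S100a8 was at 34402 FPKM in A6 and 576 FPKM in A12.

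The 16 macrophage mRNAs summed to 1945 to 40483 FPKM with digitoxin and 3601 to 28952 FPKM with vehicle. Lysozyme (Lyz2), an mRNA that alveolar epithelium also makes, was 25503 to 39245 FPKM of the sum in A1, A6, B5 and B9, but 887 FPKM in A12 and 1791 FPKM in B14. Without Lyz2 the other 15 summed to 1346, 1238 and 1059 FPKM in A1, A6 and A12 and to 1488, 1027 and 1811 FPKM in B5, B9 and B14. That range was narrow beside that of the partners, but abundant mRNAs within the sum ran in opposite directions, as given below. Within the list of 16, 4 mRNAs were highest in A6, 7 were lowest in A6 and 9 were lowest in A12. Of all tested rows these shares were 23.9%, 50.5% and 20.5%, in the same order. Cd68, a lysosomal glycoprotein, was at 270.1 FPKM in A6 and 85.6 in A12, the direction of the partners. The complement gene C1qa was at 72.3 FPKM in A6, 275 in A12 and 435 in B14, and the scavenger receptor Msr1 at 7.14 in A6 and 20.6 in A12. Mpeg1 and Msr1 were the 2 of the 16 that were lower in every digitoxin-treated tumor, against 3.26% of all tested rows. The part of cell composition in the members' profiles was not tested.

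Of the markers of other cells that could carry the oxidase, those of eosinophils were near 0, with Epx, Prg2, Ccr3 and Il5ra summing to 0.0346 to 1.08 FPKM. Low values of these 4 mRNAs do not show that the cells were absent. The 6 B cell mRNAs summed to 9.59 to 31.5 FPKM and the 6 dendritic cell mRNAs to 24.2 to 34.4 FPKM. The 3 alveolar macrophage mRNAs summed to 354 FPKM in A6 and 2057 FPKM in A12, most of it Fabp4, at 315 and 2036 FPKM, while the receptor Marco ran the other way, at 12.7 and 0.839 FPKM. The T and NK cell mRNAs, which do not mark phagocytes, summed to 30.8 FPKM in A12 and 56.1 FPKM in B14 and to at least 108 FPKM in the other 4 libraries.

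Set against Ptprc, the leukocyte antigen CD45, Cybb again overlapped between the groups. There were 35.8 FPKM of Cybb per 100 FPKM of Ptprc in A1, 8.53 in A6 and 77.8 in A12, and 42.7 in B5, 62.9 in B9 and 117 in B14. Cyba, at 1152 to 2269 per 100 FPKM of Ptprc with digitoxin and 591 to 1013 with vehicle, was higher in every digitoxin-treated tumor. Ncf1 was also higher in each, at 187 to 333 against 144 to 151. Ncf4 was higher by a margin of 193 against 192, and Rac2 overlapped. A ratio to Ptprc that was higher in every digitoxin-treated tumor was found in 6.93% of tested rows and a lower one in 0.0372%, and Ptprc was itself at 32.2 FPKM in A6 and 10.5 FPKM in A12. These ratios hold for Ptprc, which was highest in B9, while 5 of the 8 leukocyte mRNAs, Tyrobp and Laptm5 among them, were highest in A6 like the partners, and ratios to those were not computed. Cd53, another of the 8, was lower in every digitoxin-treated tumor, at 47.7 to 94.1 FPKM against 95.6 to 149 FPKM.

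The other oxidases of the family make superoxide or hydrogen peroxide outside phagocytes. Nox1 was at most 0.0984 FPKM, Nox3 was listed at 0 in all 6 tumors, and Nox4 was at most 1.04 FPKM. Duox1 ran from 0.494 to 4.56 FPKM and Duox2 from 0.0545 to 1.73 FPKM. Cybb was thus the most abundant of the catalytic subunits measured in each tumor other than A6, where Duox1 was at 3.91 FPKM. Noxa1, the activator of the Nox1 complex, was at 1.87 FPKM in A1, 0.132 in A6 and 2.71 in A12, and at 3.15 in B5, 2.93 in B9 and 2.78 in B14. It was lower in every digitoxin-treated tumor and did not pass the test (difference -0.78, standard error 0.51, adjusted p = 0.926 from limma). Noxo1, its organizer partner, was at 4.93 to 8.01 FPKM in A1, A6, B5 and B9 and at 0.290 and 0.0480 FPKM in A12 and B14.

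Among genes that regulate the complex, 3 that blood cells express were highest in A6 and lowest in A12 like the partners. Arhgdib, which holds Rac and related GTPases in the cytosol, was at 698 FPKM in A6 and 82.1 FPKM in A12, Vav1, an exchange factor for Rac, at 23.0 and 2.75 FPKM, and Prkcb, a kinase of p47phox, at 30.3 and 1.48 FPKM. Rap1a, the GTPase that copurifies with the membrane heterodimer, varied only from 48.7 to 68.5 FPKM. Of the 11 regulators in the table, 5 were highest in A6 and 8 lowest in A12, as were 23.9% and 20.5% of all tested rows. None of the 11 was lower or higher in every digitoxin-treated tumor, which 3.26% and 0.902% of all tested rows were, so a count of 0 says nothing particular of the regulators.

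Factors known to act on the Cybb promoter were divided in the same way. Spi1, which encodes PU.1, followed the partners, at 142 FPKM in A6 and 23.0 FPKM in A12. Irf8, its partner at myeloid promoters, was at 8.04 FPKM in A1, 2.55 in A6 and 6.98 in A12, and at 6.41 in B5, 11.6 in B9 and 11.1 in B14, and so was lowest in A6 like Cybb. Elf1, an ETS factor, was also lowest in A6, at 3.65 FPKM against 29.0 in A12 and 35.8 in B14. By limma the differences, digitoxin minus vehicle, were 0.20 for Spi1 (standard error 0.72), -0.71 for Irf8 (0.47) and -1.15 for Elf1 (0.70), with adjusted p-values of 0.965, 0.926 and 0.926. Rela, a subunit of NF-kappaB, was nearly level over the 6 tumors, from 68.2 to 83.4 FPKM.

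Among the 25 genes that make or remove oxidants, Mpo, the peroxidase that uses the oxidase's product in neutrophils, was at most 0.270 FPKM, and Epx and Lpo were under 1 FPKM as well. Nos2, inducible nitric oxide synthase, was at most 3.89 FPKM, in B14. Sod1, which dismutates superoxide in the cytosol, ran from 706 to 1285 FPKM. The peroxidases Gpx1 and Prdx6 had their lowest levels in A12 and B14, at 528 and 512 FPKM for Gpx1 and 119 and 129 FPKM for Prdx6. Glutathione reductase (Gsr) stood the other way, at 254 FPKM in A12 and 249 in B14 and 30.4 in A6. Of the 21 tested genes of this group 7 were highest in A6 and 11 lowest there, shares near those of all tested rows, 23.9% and 50.5%.

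Over the 4 lists, 57 of 63 genes were in the table and 47 were tested. Of the 47, 28 had a difference below 0 and 19 above 0, with a median of -0.0886, against -0.16 for all tested rows. Median-of-ratios scaling of the libraries shifted the median of all rows by 0.179. Under both scalings the 4 partners' differences lay above 0 and Cybb's below the median. None of the 47 passed limma's test at an adjusted p under 0.05, and none had an unadjusted p under 0.05. Lower in every digitoxin-treated tumor was 1 of the 47, Noxa1 (2.13%, against 3.26% of all rows), and higher in every one were 0, against 0.902% of all rows. Without A12, 13 of the 47 (27.7%) had an unadjusted p under 0.05, 9 higher and 4 lower with digitoxin, against 19.7% of all rows. These included Spi1 (1.00) and Prkcb (1.59), both higher, and Elf1 (-1.77), lower.

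**Figure D5:**
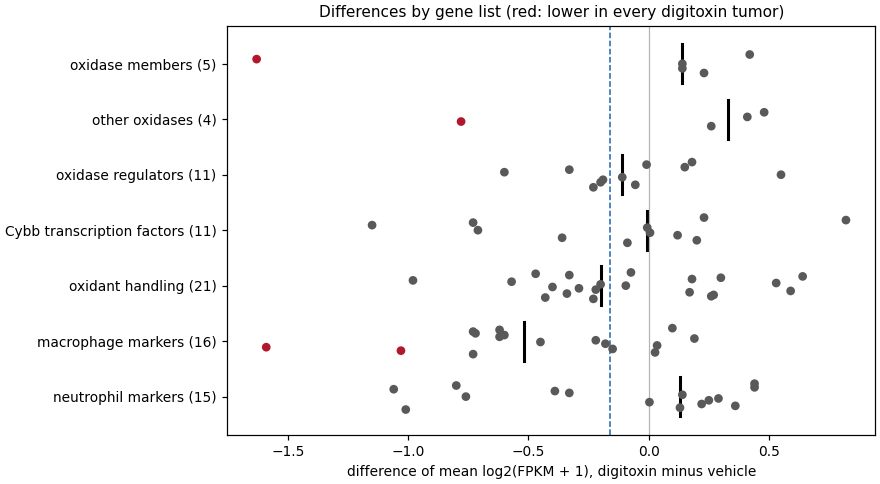
Difference of mean log2(FPKM + 1), digitoxin minus vehicle, for each tested gene of 7 lists, with the number of genes in brackets and black bars at the list medians. The dashed line marks the median of all tested rows, -0.16, and of the members Cybb, at -1.63, is the one lower in every digitoxin-treated tumor, while its 4 partners lie above 0.

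In the coordinates of the table, for which no rat build is named in the sources used here, the members were spread over 4 chromosomes. Cybb lay on chromosome X from 15359404 to 15391317, Cyba on chromosome 19 from 65959817 to 65967224 and Ncf1 on chromosome 12 from 27505792 to 27514989. Ncf4 and Rac2 were neighbours on chromosome 7, from 119473858 to 119490871 and from 119772956 to 119786147. Irf8 lay on chromosome 19 with Cyba, from 65037337 to 65053996.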

How the data were processed

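RNA from 6 tumors was made into TruSeq libraries and sequenced as single reads. The deposited values are FPKM, which the authors computed with Bowtie 2, TopHat 2 and Cufflinks from groomed reads and call RPKM in their methods. Per the labels the processing names hg19, a human build, and the rat build and any scaling between tumors are not given in the sources used here. Differential analysis by Cuffdiff needs reads and was not repeated.

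Each of the 6 columns was matched to a rat by its label. Where a symbol was repeated, its row of highest mean was used. Ratios of FPKM below 1 to those of B9 shared no common step (at most 1.37% at the most frequent ratio), so depth is unknown and no counting error can be given. The 10749 rows whose mean reached 1 FPKM were fitted on log2(FPKM + 1), which understates changes of low mRNAs, with limma 3.58.1 (eBayes with a trend, R 4.3.3). Tests were two-sided with Benjamini-Hochberg adjustment over all rows. An exact permutation test of 3 against 3 cannot go below 0.10. Other values used scipy 1.17.1, pandas 2.3.3 and numpy 2.4.6 in Python 3.11.15.

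Members and lists were chosen with earlier results of these data known. Named genes are the members, the 4 pathway lists, the 5 rows closest to Cybb and markers that touch a result. Of the 63 pathway genes, Dock2, Hvcn1, Pik3cg, Cybc1, Nfkb1 and Cux1 were not analysed here, and 10 fell below the minimum mean. Some listed genes are counted with their list and not reported here by name. Same-numbered tumors deviated together (r = 0.426, 0.606 and 0.869 across genes), so a replicate block was fitted, although the labels do not say that a number marks a shared batch and A1 with B9 (0.644) moved as closely.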

Additional observations from a re-analysis of the deposited data

How the results depend on the processing

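The alternatives were a pseudocount of 0.1, no minimum mean, eBayes without a trend, scaling by median of ratios, the replicate block, each tumor left out in turn and ratios of group means, with A12 and B14 left out together added after the data were seen. The number of rows past the adjusted threshold was 0 in each, other than 2 without A12 and B14 and 0 to 2 with 1 tumor left out (2 without B14). Rows at an unadjusted p under 0.05 were 36, and 185 without a minimum, 446 with the replicate block, 1183 without A12 and B14 and 13 to 2114 with 1 tumor left out. Pathway genes at an unadjusted p under 0.05 were 0, and 6 without A12 and B14 and 0 to 13 with 1 tumor left out (13 without A12). With 1 tumor left out the difference of Cyba ran from -0.0513 to 0.98, of Ncf1 from -0.31 to 0.89, of Ncf4 from -0.44 to 0.83 and of Rac2 from -0.52 to 1.29. Under the other alternatives the partners stayed above 0, and none passed the adjusted threshold in any fit. The replicate block changed no other call. Where a count moved, the cause was not tested. The depth is unknown, so low FPKM have no known precision.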
